A study of Mus musculus with 6 samples.

Results

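The ABCC transporters are a family of membrane proteins also known as multidrug resistance-associated proteins (MRP), and the 10 genes described here are Abcc1, Abcc2, Abcc3, Abcc4, Abcc5, Abcc6, Abcc8, Abcc9, Abcc10 and Abcc12. They were taken by gene symbol from the 24411 genes listed in each file, and all 10 were found. RNA was sequenced from whole testes of age-matched C57BL/6 mice, an inbred laboratory strain, with 3 samples labelled Wildtype (WT) and 3 labelled MRP5-/- and MRP9-/- (a double knockout, DKO). MRP5 is the product of Abcc5 and MRP9 that of Abcc12. The age, the design of the knockout alleles and whether the groups were littermates are not given in the sources used here. No agent or other allele is named for either group. The comparison asks which transcripts differ in testis when both transporters are meant to be missing.

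ABCC proteins use ATP to move substrates across membranes. Most are exporters of organic anions, among them glutathione, glucuronide and sulfate conjugates and cyclic nucleotides, while Abcc8 and Abcc9 encode sulfonylurea receptors, which transport nothing themselves and gate the ATP-sensitive potassium channel. In the testis, efflux pumps of this family are known from the cells that separate germ cells from blood and from germ cells themselves, and MRP9 is known as a testis protein with no settled substrate. MRP5 has been linked to the export of cyclic nucleotides and of heme.

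The 3 libraries labelled DKO held from 42673615 to 67131103 expected counts and the 3 labelled WT from 26753721 to 31745969, so that depth did not overlap between groups. Mean fragment length did not overlap either, at 275 to 317 bases against 230 to 258 bases, so genotype label, depth and fragment length cannot be told apart by group. The labels do not say that the samples of a group came from separate animals, so p-values measure only the spread between these samples, which may be technical. The tissue label was checked against markers. Spermatid markers summed to between 15333 and 19082 counts-per-million (CPM) in every library, whereas 4 epididymal genes together reached at most 0.204 CPM, with 2 of them at 0 in all libraries. The 10 ABCC genes had between 7 and 6121 counts in a library, and none of these counts was fractional.

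Abcc12 was lower in libraries labelled DKO, and its transcript was still counted there at about the level of the next member. Its level was 82.1, 82.4 and 72.6 CPM in the libraries labelled DKO and 165, 158 and 158 CPM in those labelled WT. Every library labelled DKO was below every library labelled WT. The log2 fold change was -1.02 (SE 0.0739, 95% interval -1.18 to -0.86; edgeR quasi-likelihood test, adjusted p = 0.000307), and of 17110 tested genes Abcc12 had rank 1 by p. On the per-length scale, transcripts-per-million (TPM), the Abcc12 level was 27.4, 26.9 and 25.5 against 55.8, 58.4 and 55.7. The gene lies at chr8:86504568-86580688 (mm10). Its row sums 1 annotated transcript of 4511 bases over all exons, so the files cannot show which exons were read.

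Abcc5 was higher, not lower, in libraries labelled DKO. Its level was 17.0, 16.7 and 16.8 CPM there and 10.5, 12.3 and 11.4 CPM in libraries labelled WT. The groups did not overlap, and the SD over the 3 libraries labelled DKO was 0.190 CPM. The log2 fold change was 0.56 (SE 0.0896, 95% interval 0.37 to 0.76; edgeR adjusted p = 0.0225). Abcc5 RNA was thus not lower in any of the 3 libraries labelled MRP5-/-. The allele design is not given, so the RNA level that the label implies is unknown, and groups are named by their labels. This call did not hold everywhere: the edgeR adjusted p was 0.0980 without DKO replicate 1, 0.0562 without WT replicate 2 and 0.0993 without WT replicate 3. Those fits called only 11, 13 and 7 genes over the whole data. With mean fragment length as a covariate the log2 fold change was 0.64 (edgeR adjusted p = 0.999), and on log2(TPM + 1) it was 0.27 (limma adjusted p = 0.107). The covariate fit called only 1 of all tested genes. In whole testis, fewer cells of a type and less RNA per cell cannot be told apart, here or in any result that follows.

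**Figure D1:**
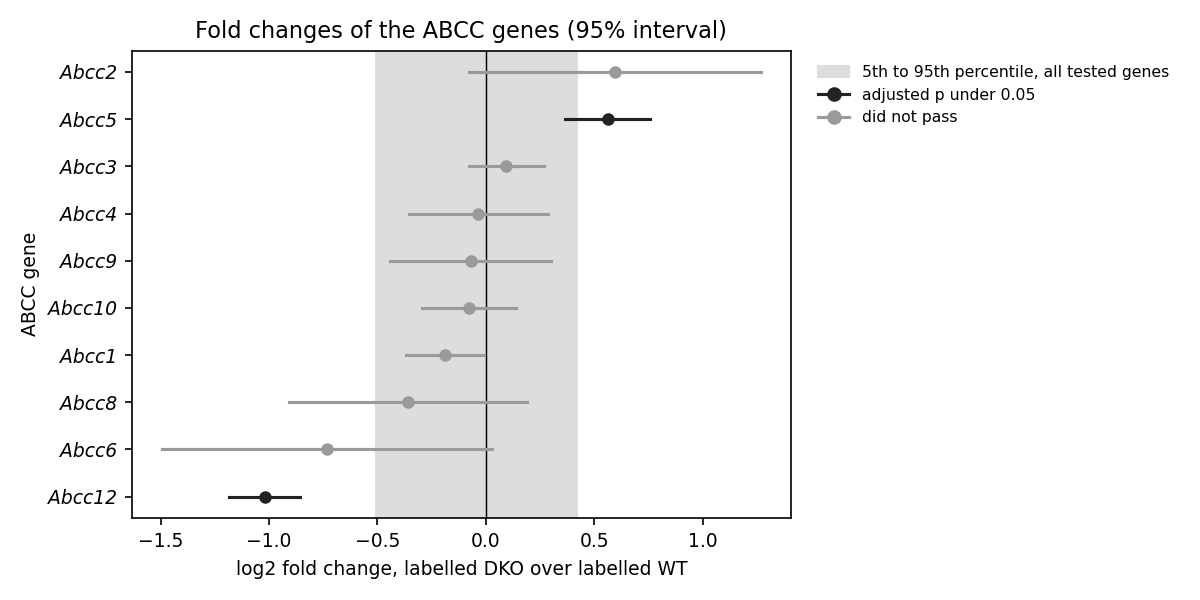
Log2 fold change of each ABCC gene (x axis, labelled DKO over labelled WT) with its 95% interval from the edgeR fit over 3 against 3 libraries, beside the range from the 5th to the 95th percentile of all 17110 tested genes (grey band). Abcc12 at -1.02 and Abcc5 at 0.56 are drawn dark because their adjusted p was under 0.05, and the intervals of Abcc2 and Abcc6 are the widest.

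The Abcc5 gene (chr16:20331303-20426428, mm10, minus strand) is listed with 2 transcripts that share a start region and part ways after exon 5. The long one has 30 exons and 5811 bases with 4308 coding bases in the GENCODE M21 annotation, and the short one has 7 exons and 1136 bases with 624 coding bases. The sequences show the point after exon 5 where the forms diverge. The long form also starts 0.04 kb further upstream in exon 1. Each starts with the last 30 bases of exon 5 (chr16:20404566-20404595) in lower case and goes on in capitals with the first 33 bases of its own exon 6. For the long transcript these capitals lie at chr16:20400007-20400039. For the short one they lie at chr16:20402302-20402334, inside the intron between exons 5 and 6 of the long form, and are its last coding bases before the stop codon.
Abcc5 long transcript: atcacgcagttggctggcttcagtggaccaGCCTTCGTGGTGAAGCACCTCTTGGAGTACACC
Abcc5 short transcript: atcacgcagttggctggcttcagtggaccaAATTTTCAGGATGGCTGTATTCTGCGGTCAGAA

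The deposited length of a gene is the mean length of its transcripts, weighted by their estimated abundance, so it shows the estimated mix of these forms. The Abcc5 length was 5605, 5405 and 5446 bases in the DKO-labelled libraries and 4848, 5150 and 4831 bases in the WT-labelled ones, with no overlap. With the GENCODE lengths of both forms, these values correspond to a short-form share of Abcc5 TPM of 4.42, 8.68 and 7.81% against 20.6, 14.1 and 21.0%. The means were 6.97% ± 2.25 and 18.6% ± 3.84 (SD, n = 3 each; exact two-sided permutation p = 0.1, the smallest that 3 against 3 libraries allow). In every library labelled DKO a smaller part of Abcc5 was thus assigned to the short form.

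Very few fragments carry this difference. The shares correspond to 4.85, 10.5 and 14.8 estimated fragments on the short form in libraries labelled DKO and 10.9, 10.7 and 14.4 in those labelled WT, which overlap (exact two-sided permutation p = 0.7). Libraries labelled DKO were deeper, and on the CPM scale the short form had 0.117, 0.240 and 0.219 against 0.413, 0.319 and 0.465, without overlap (exact permutation p = 0.1). Over the same libraries the long form received 704, 722 and 1121 fragments against 265, 400 and 339. Nearly all Abcc5 fragments were therefore assigned to the long form. Its estimated level of 16.6 ± 0.253 against 11.0 ± 0.945 CPM (SD, n = 3 each) was 1.52 times as high in libraries labelled DKO (exact permutation p = 0.1). The split assumes the annotated forms in every library. Gene-level counts cannot show which exons were read, so they do not show that the long form was intact in libraries labelled DKO. On the TPM scale, where counts are divided by an effective length that differed between groups (5192 against 4700 bases), the whole gene was 1.26 times as high, at 4.61 ± 0.200 against 3.66 ± 0.346 (SD, n = 3 each). The long form alone was 1.44 times as high on that scale, at 4.29 ± 0.186 against 2.98 ± 0.399. The lengths stand for RefSeq transcripts and are taken from GENCODE. With a long form 34 bases longer, as far as the RefSeq gene reaches, the shares were 7.64% and 19.1%.

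**Figure D2:**
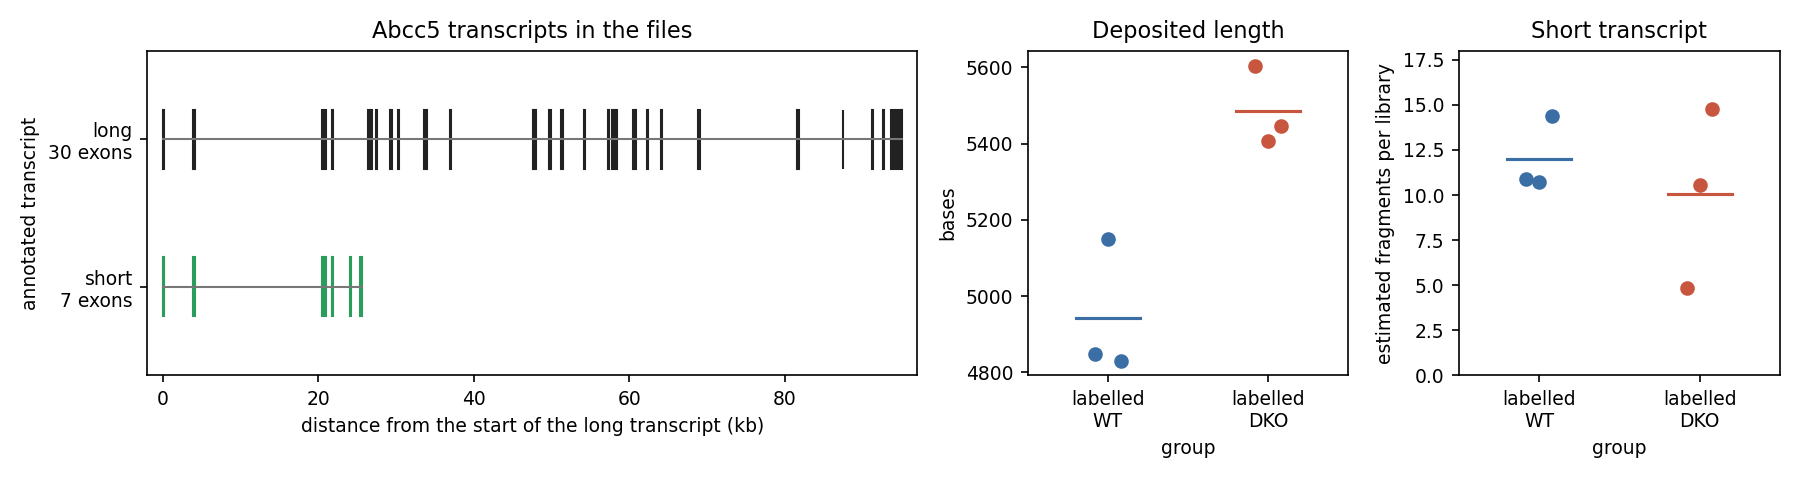
Left, exons of both Abcc5 transcripts against the distance in kb from the start of the long form; middle, deposited length of Abcc5 in bases; right, estimated fragments on the short transcript (points are libraries, lines are means of 3). The lengths do not overlap between groups, with DKO between 5405 and 5605 bases, while the fragments behind them, 4.85 to 14.8 in a library and not scaled to depth, do.

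Among the other 3 members with several transcripts, the Abcc4 length did not overlap between groups, at 5725 ± 7.23 against 5679 ± 30.03 bases (SD, n = 3 each). The Abcc9 and Abcc10 lengths overlapped. Over these 4 members the exact permutation p-values, adjusted by the Benjamini-Hochberg method, were 0.2 for Abcc5 and Abcc4 and 0.4 for Abcc9 and Abcc10. The other 6 members have 1 transcript in the files and therefore a fixed length.

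In libraries labelled WT the members spanned a wide range per length. Abcc12 was the most abundant, at 56.7 ± 1.54 TPM, followed by Abcc3 at 26.3 ± 2.83 TPM and Abcc1 at 14.5 ± 1.49 TPM (SD, n = 3 each). These 3 did not overlap with their neighbours in the order. Abcc10 at 3.79 TPM and Abcc5 at 3.66 TPM overlapped with each other, then came Abcc4 at 1.09 TPM and Abcc9 at 0.580 TPM, each apart from the next. Abcc8, Abcc2 and Abcc6 closed the order at 0.290, 0.157 and 0.150 TPM, and each of them overlapped with the next. In libraries labelled DKO the leading places were shared by Abcc3 at 26.7 ± 2.09 TPM and Abcc12 at 26.6 ± 0.978 TPM, whose libraries overlapped. Abcc5 stood above Abcc10 there without overlap, at 4.61 against 3.42 TPM. Among all genes with a TPM above 0, Abcc12 lay between percentiles 75.5 and 85.4 over the 6 libraries and Abcc6 between 5.28 and 11.2.

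**Figure D3:**
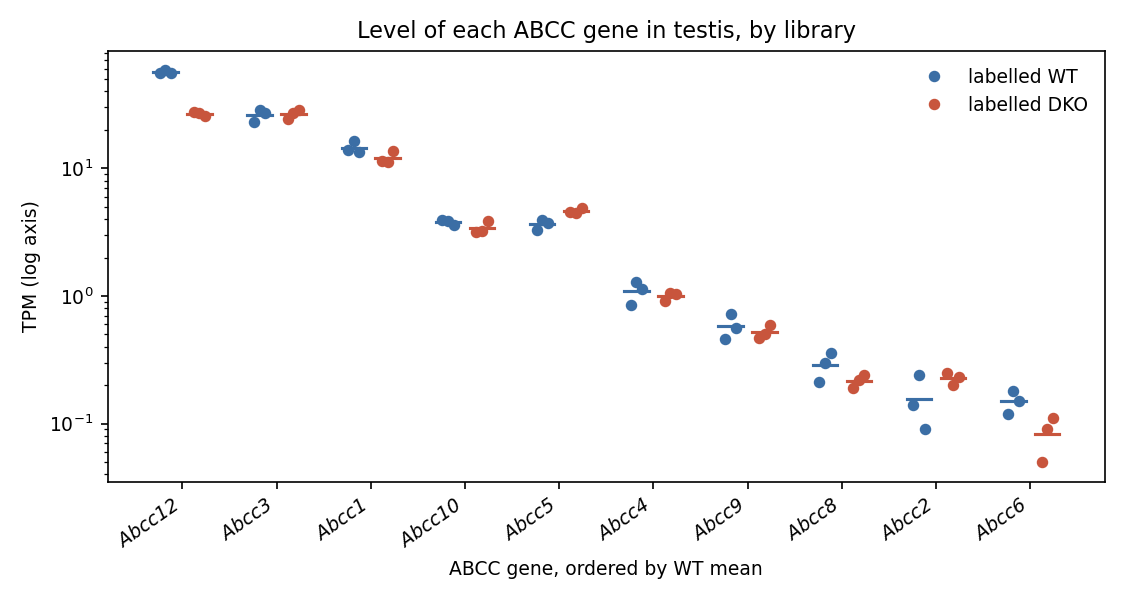
TPM of each ABCC gene (log axis) in the 3 libraries labelled WT and the 3 labelled DKO, ordered by the WT mean; points are libraries and lines are means. Abcc12 falls from 56.7 to 26.6 TPM, next to Abcc3, and the members to the right of Abcc5 reach at most 1.28 TPM in any library.

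The exporters of conjugated organic anions were led by Abcc3. Abcc3, which carries glucuronides and bile salts out of cells, had 81.8, 92.9 and 90.6 CPM in libraries labelled DKO and 76.3, 86.1 and 86.1 CPM in those labelled WT. The groups overlapped, with a log2 fold change of 0.09 (95% interval -0.08 to 0.27; edgeR adjusted p = 0.442). Abcc1, an exporter of glutathione conjugates and leukotriene C4, had 45.5, 46.1 and 52.3 CPM against 54.4, 58.4 and 51.3 CPM. Here 1 library labelled DKO reached above the lowest labelled WT, and the log2 fold change was -0.19 (95% interval -0.37 to -0.01), with an unadjusted p of 0.0406 and an edgeR adjusted p of 0.138. Abcc2, the apical pump for conjugated bilirubin in liver, had few reads, with 38, 32 and 54 counts against 13, 26 and 10. Its levels of 0.913, 0.727 and 0.799 CPM against 0.493, 0.776 and 0.323 CPM overlapped, and its log2 fold change of 0.59 had a 95% interval from -0.08 to 1.27 (edgeR adjusted p = 0.208). It was 0.33 without WT replicate 3 and 0.997 without WT replicate 2.

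Abcc4, which exports cyclic nucleotides and prostanoids and is in that respect the member most often set beside MRP5, showed no detectable difference. It had 3.56, 4.16 and 3.78 CPM in libraries labelled DKO and 3.22, 4.39 and 4.10 CPM in those labelled WT. The log2 fold change was -0.04, with a 95% interval from -0.36 to 0.29 (edgeR adjusted p = 0.894). Abcc10, a pump for lipophilic drugs, had 10.4, 10.7 and 11.9 CPM against 12.6, 11.3 and 11.0 CPM, which overlapped (log2 fold change -0.08, 95% interval -0.29 to 0.14; edgeR adjusted p = 0.622). For both genes the interval ended below the log2 fold change of 0.56 that Abcc5 showed. Abcc6, known for its part in ATP release and in the control of calcification, was the least abundant member. Its 7, 13 and 24 counts against 10, 18 and 15 gave 0.168, 0.295 and 0.355 CPM against 0.379, 0.537 and 0.485 CPM. These did not overlap, but the log2 fold change of -0.73 (95% interval -1.49 to 0.03) did not pass (edgeR adjusted p = 0.171).

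Both sulfonylurea receptors were scarce. Abcc8, the receptor of pancreatic beta cells and neurons, had 0.625, 0.750 and 0.740 CPM in libraries labelled DKO and 0.683, 0.895 and 1.13 CPM in those labelled WT, with overlap (log2 fold change -0.36, edgeR adjusted p = 0.347). Abcc9, the receptor of vascular smooth muscle and pericytes, had 2.35, 2.59 and 2.83 CPM against 2.24, 3.25 and 2.65 CPM (log2 fold change -0.07, edgeR adjusted p = 0.812). The genes of the channel pores they join, Kcnj8 and Kcnj11, were also low, and neither passed the test. Kcnj8 had 0.865, 0.909 and 0.933 CPM against 1.67, 1.01 and 1.71 CPM (log2 fold change -0.68, edgeR adjusted p = 0.0750). For Kcnj11 the values were 0.216, 0.545 and 0.385 CPM against 0.835, 0.597 and 0.808 CPM (log2 fold change -0.94, edgeR adjusted p = 0.0813). Each pore gene was without overlap between groups, as were 35.9% of all tested genes. Markers of pericytes and endothelium, where Abcc9 and Kcnj8 are known to be expressed, summed to between 36.1 and 40.1 CPM in libraries labelled DKO and between 41.6 and 44.4 CPM in those labelled WT. The largest part was Vwf, at 18.1 and 20.3 CPM (mean labelled DKO and WT). Rgs5 alone was higher, with a log2 fold change of 0.24. By edgeR and by DESeq2 none of these 6 markers was called. In edgeR 1 had an unadjusted p under 0.05, where 31.7% of all tested genes had. Their part in the pore gene values was not tested. Markers of peritubular smooth muscle summed to between 111 and 124 CPM (DKO) and between 126 and 168 CPM (WT). Of these 4 markers edgeR called 1, Tagln at -0.58 (adjusted p = 0.0237), where it called 10.8% of all tested genes. DESeq2 called 3, all lower, where it called 2943 of the 17110 genes given to it. It gave some scarce genes no adjusted p, among them Abcc2, Abcc6 and Abcc8. The share called among the genes it judged is therefore higher. The part of these markers in the Abcc9 and pore gene values was not tested either. Both pore genes had an unadjusted edgeR p under 0.05, as had 31.7% of all tested genes. DESeq2 called neither. Kcnj11, at 0.382 and 0.747 CPM (mean labelled DKO and WT), was scarcer than Abcc8, at 0.705 and 0.903 CPM. DESeq2 gave Abcc8 no adjusted p, so the missing call for Kcnj11 cannot be read as a test result.

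Of the 10 members, all of which were tested, 2 were called: Abcc5 higher and Abcc12 lower. Both are the genes named in the genotype label, and none of the other members was called. Over all tested genes 10.8% were called, with 5.75% higher and 5.1% lower, so the number of members called is close to the background. The count of 3 members without overlap, Abcc5, Abcc6 and Abcc12, also stands beside 35.9% of all tested genes. The median log2 fold change of the members was -0.07, against -0.0042 for all tested genes. The fold changes of Abcc12 and Abcc5 lay at percentiles 0.491 and 98.3 of all tested genes. Size did not set Abcc5 apart within the family. Abcc2 at 0.59 and Abcc6 at -0.73 were larger in size, but had few counts and did not pass.

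The summed ABCC pool was smaller in libraries labelled DKO, and without Abcc12 the groups overlapped. The 10 members summed to 72.8, 75.0 and 78.7 TPM in libraries labelled DKO and 102, 114 and 106 TPM in those labelled WT, a ratio of 0.704 (exact two-sided permutation p = 0.1, the smallest possible). Without Abcc12 the sums were 45.3, 48.1 and 53.2 TPM against 46.0, 55.4 and 50.3 TPM, which overlapped (exact permutation p = 0.6). Abcc12 made up 52.9% ± 1.78 of the pool in libraries labelled WT and 35.3% ± 2.67 in those labelled DKO (SD, n = 3 each; exact permutation p = 0.1). The share of Abcc3 was 24.5% ± 1.54 against 35.3% ± 1.53, a share of a smaller total, while its own TPM overlapped between groups. Abcc5 held 3.41% ± 0.160 of the pool in libraries labelled WT and 6.11% ± 0.119 in those labelled DKO.

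**Figure D4:**
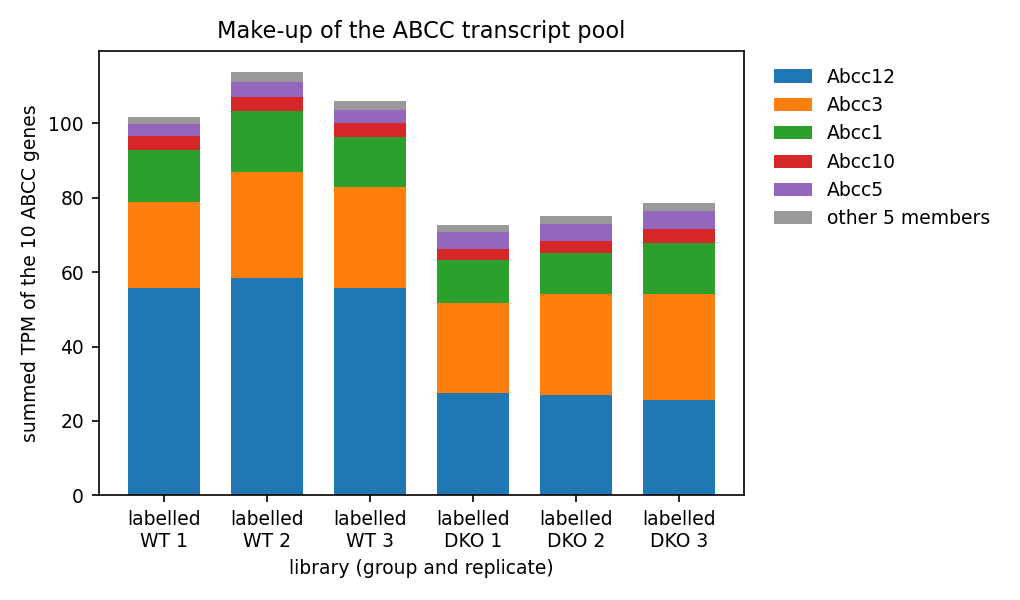
Summed TPM of the 10 ABCC genes in each library (y axis from 0), stacked by gene, for 3 libraries labelled WT and 3 labelled DKO. The stacks end at 102 to 114 TPM in libraries labelled WT and at 72.8 to 78.7 TPM in those labelled DKO, and the difference lies in the lowest segment, Abcc12.

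Exporters of the plasma membrane that are not among the 10 were examined as a list of 6 genes, of which 2 were called, both higher, where 5.75% of all tested genes were called higher. Cftr, a chloride channel that belongs to the ABCC family by sequence, had 41.9, 35.9 and 34.5 CPM in libraries labelled DKO and 30.5, 25.5 and 28.1 CPM in those labelled WT (log2 fold change 0.42, SE 0.0960; edgeR adjusted p = 0.0320). Abcg2, the breast cancer resistance protein, which also exports heme and porphyrins, had 34.0, 29.2 and 26.1 CPM against 23.9, 19.8 and 19.0 CPM (log2 fold change 0.51, SE 0.115; edgeR adjusted p = 0.0301). Without overlap between groups were 3 of the 6, beside 35.9% of all tested genes. Cftr and Abcg2 were higher, and Abcb1b was lower. The transporter genes Abcb1a, Abcb1b, Abcb4 and Abcb11 did not pass, with log2 fold changes of -0.10, -0.64, -0.0041 and 0.30. Neither Cftr nor Abcg2 was called without DKO replicate 1, DKO replicate 2, WT replicate 2 or WT replicate 3, although the log2 fold change of Cftr was still 0.32, 0.44, 0.35 and 0.42 in these fits. With mean fragment length as a covariate it was 0.05 (edgeR adjusted p = 0.999). No gene of the list was called in that fit or with limma on log2(TPM + 1) or log2(FPKM + 1). Among all tested genes only 11, 655, 13 and 7 were called without those libraries in turn, and 1 with the covariate.

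Genes that make and conjugate glutathione, the shared substrate and partner of several MRPs, included 7 called genes of 26 tested, all lower, where 5.1% of all tested genes were called lower. Gstp1 had 11.8, 16.3 and 12.8 CPM in libraries labelled DKO and 19.8, 28.0 and 22.9 CPM in those labelled WT (log2 fold change -0.80, edgeR adjusted p = 0.0237). Its counts were fractional in all 6 libraries, so reads were shared with another gene and its value is uncertain. The others named by size of p were Gstt2, Gstm7, Mgst3, Gstm6 and Gstm1, all conjugating enzymes or their membrane-bound relatives, with log2 fold changes of -0.48, -0.42, -0.75, -0.38 and -0.72. The remaining called gene, Gsta3, is outside the naming rule and had -0.45. The enzymes of glutathione synthesis did not pass, with log2 fold changes of 0.02 for Gclc, 0.12 for Gclm and -0.26 for Gss. The median of the list was -0.27. Its genes are short, with a median deposited length of 1294 bases against 4511 to 7362 bases for the ABCC members. With mean fragment length as a covariate none was called and the median was -0.05. With an offset that removes each library's trend on length, 5 were called and the median was -0.20. None was called without DKO replicate 1, WT replicate 2 or WT replicate 3, where only 11, 13 and 7 of all tested genes were called. The covariate fit called only 1 of all tested genes. The median of the list stayed between -0.32 and -0.18 over the 6 fits that left out a library.

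Leydig cells make testosterone in the interstitium. Their 6 marker genes summed to between 378 and 571 CPM in libraries labelled DKO and between 544 and 1041 CPM in those labelled WT. These ranges overlapped, and 2 of 6 were called, both lower. Hsd3b1 alone was higher, with a log2 fold change of 0.21. No Leydig marker was called with the fragment length covariate (median -0.51) or without WT replicate 2 or WT replicate 3. Sertoli cell markers summed to between 907 and 1100 CPM (DKO) and between 1058 and 1320 CPM (WT), again with overlap. Of 7, 2 were called, both lower, and none with the covariate or without WT replicate 3. Most of the sum was Clu, at 864 and 1000.5 CPM (mean labelled DKO and WT), which was not called. Wt1 alone was higher, with a log2 fold change of 0.08. Spermatocyte markers summed to between 884 and 1142 CPM (DKO) and between 819 and 917 CPM (WT), also with overlap. The largest part was Piwil1, at 513 and 515 CPM (mean labelled DKO and WT) and a log2 fold change of -0.0055. Of 5 spermatocyte markers 2 were called, both higher, and the median log2 fold change was 0.54. With the covariate this median was -0.10 and none was called, nor was any without DKO replicate 1, WT replicate 2 or WT replicate 3. Over all tested genes 10.8% were called. Only 11, 13 and 7 genes were called without DKO replicate 1, WT replicate 2 and WT replicate 3, and 1 with the covariate. No marker in these 3 lists was at 0 in all libraries. The part of these markers in the values of the glutathione genes, of Cftr and Abcg2, or of Abcc5 and Abcc12 was not tested.

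In pathways of substrates linked to MRP5, the share of genes called by edgeR was near the 10.8% of all tested genes. Of 14 genes for heme traffic and breakdown 1 was called: Blvrb, a biliverdin reductase, at 2.96, 3.54 and 2.75 CPM against 4.10, 7.61 and 5.04 CPM (log2 fold change -0.87, edgeR adjusted p = 0.0335). The heme transporter Slc48a1 and the genes Flvcr1 and Flvcr2 (listed as Mfsd7b and Mfsd7c) did not pass, with log2 fold changes of -0.22, 0.16 and -0.07. Of 12 tested genes for cyclic GMP synthesis, breakdown and response 1 was called: Npr1, the natriuretic peptide receptor that makes cyclic GMP, at 49.5, 55.0 and 57.9 CPM against 65.8, 70.3 and 63.6 CPM (log2 fold change -0.30, edgeR adjusted p = 0.0395). In each of these 2 lists no gene was called without DKO replicate 1, DKO replicate 2, WT replicate 2 or WT replicate 3, with the fragment length covariate, or with limma on the log2 TPM and FPKM scales. Among all tested genes only 11, 655, 13 and 7 were called without these libraries in turn, and 1 with the covariate. After thinning to the smallest total none of the cyclic GMP genes was called. DESeq2 called 3 heme genes, all lower, and 1 cyclic GMP gene, where it called 2943 of the 17110 genes given to it. Some scarce genes got no adjusted p from DESeq2, so the share called among those it judged is higher. Without overlap between groups, in either direction, were 8 of 14 heme genes and 1 of 12 cyclic GMP genes, beside 35.9% of all tested genes. Outside these pathways, neither edgeR nor DESeq2 called any of 10 tested genes for sulfation and glucuronidation (3 at an unadjusted p under 0.05, median 0.0088). The same held for 2 genes of leukotriene synthesis (0 at an unadjusted p under 0.05, median -0.33). Ugt1a1, a glucuronidation gene at 0.497 and 0.541 CPM (mean labelled DKO and WT), was scarcer than Abcc8. DESeq2 may thus have given it no adjusted p. Without WT replicate 1 edgeR called 2 sulfation and glucuronidation genes lower, and without DKO replicate 3 it called 1 higher. An unadjusted edgeR p under 0.05 was found for 31.7% of all tested genes.

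The neighbourhoods of both targeted genes were read as the 3 nearest tested protein-coding genes on each side, beside the 10.8% called over all tested genes. Around Abcc5 the log2 fold changes ran from -0.49 to 0.10, with 1 of 6 called, Ap2m1 at -0.32 (edgeR adjusted p = 0.0372). The nearest genes on either side, Parl and Eif2b5, had 0.10 and 0.02. None of these 6 was called higher. Around Abcc12 they ran from -0.02 to 0.35, with 1 of 6 called, Itfg1 at 0.29 (edgeR adjusted p = 0.0372). Lonp2, the closest to Abcc12 at 43.4 kb, had 0.04. None of these 6 was called lower.

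The genes whose values followed Abcc5 and Abcc12 most closely over the 6 libraries were listed by the root mean square difference of log2 CPM deviations from each gene's mean. For Abcc5 these were Gda, Ccr7, Slc25a13, Pcdhga4 and Eno2, with differences from 0.0482 to 0.0791. For Abcc12 they were Lenep, Slc9a7, Lhx8, Bola2 and Ifitm3, with differences from 0.0661 to 0.133. Some had few reads. Mean levels (labelled DKO against WT) were 0.207 against 0.485 CPM for Lenep and 0.120 against 0.318 CPM for Slc9a7. They were 0.304 against 0.601 CPM for Lhx8, and 0.398 against 0.272 CPM for Eno2. The genes near Abcc5 all had higher values in every library labelled DKO than in any labelled WT, and those near Abcc12 lower ones, so the likeness largely follows the contrast between the groups.

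**Figure D5:**
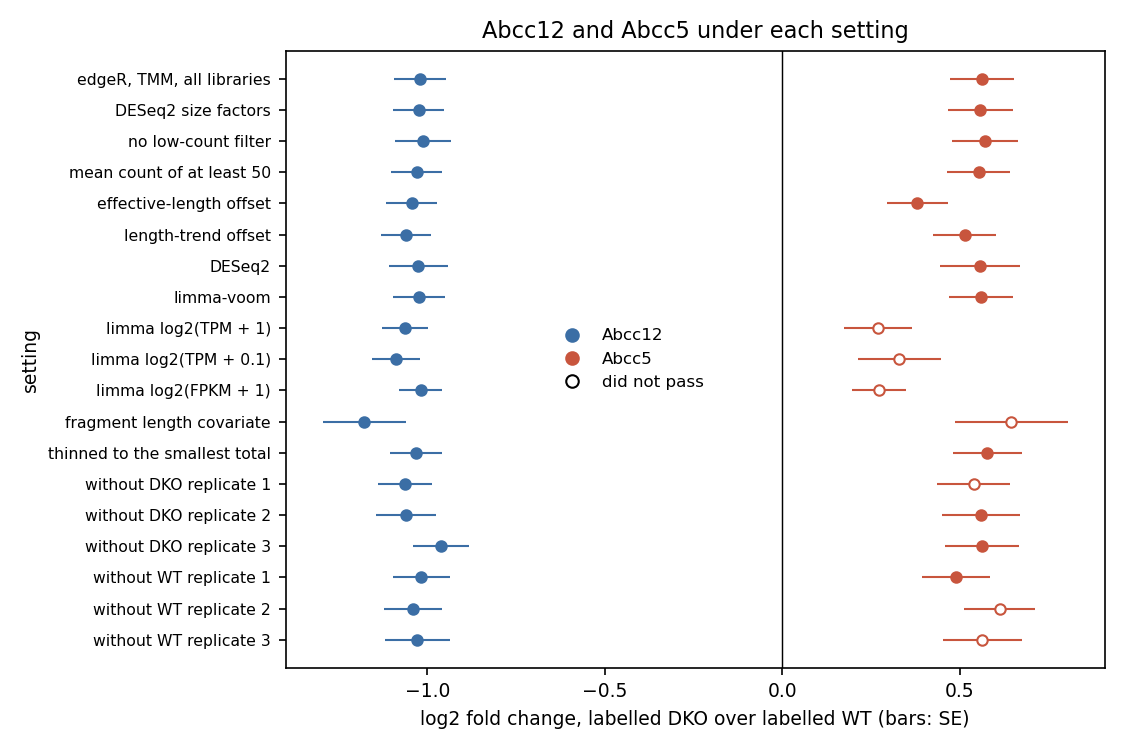
Log2 fold change (x axis, bars are SE) of Abcc12 and Abcc5 under each setting of the processing and with each library left out; open points did not reach an adjusted p under 0.05. Abcc12 stays between -1.18 and -0.96 with all points filled, and Abcc5 stays between 0.27 and 0.64 with 7 of its 18 alternative points open.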

How the data were processed

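Per the submitters' processing notes, build mm10, STAR 2.7.0f, RSEM 1.2.31 and DESeq2 1.12.3 were used; strand setting, annotation release and read filters are not given in the sources used here. Per the file headers, 1 RSEM gene table per library gives an expected count, TPM, FPKM and lengths in bases. Expected counts, as the authors deposited them, estimate fragments per gene; 93.2% were whole, meaning exactly equal to their rounded value. The TPM and FPKM values deposited by the authors are scaled by effective length within each library.

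Expected counts were rounded, filtered with filterByExpr and scaled by TMM, and groups were compared with the edgeR 4.0.16 quasi-likelihood test over all genes, with Benjamini-Hochberg adjustment and a threshold of 0.05 (limma 3.58.1 and DESeq2 1.42.0 in alternatives). The code was tested on simulated data. SE is the absolute log2 fold change divided by the square root of F. CPM values are TMM-normalised. Single quantities were compared by exact two-sided permutation tests. The short-form share of Abcc5 was solved from the deposited length and both GENCODE M21 transcript lengths, and this step was chosen after the values were seen. Positions come from RefSeq for GRCm38.p6, the assembly of mm10. Replicate numbers follow the order of deposition and pair nothing.

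Named are all members, the 5 genes most like Abcc5 and Abcc12, 3 neighbours on each side, and up to 6 called genes per related list. Members and lists were chosen with earlier results of these data known. Totals of 26753721 to 67131103 counts limit the precision of members with few counts. Intervals are those of the fit. Alternatives were other scalings, filters, offsets, tests and units, a fragment length covariate, thinning and leaving out each library.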

Additional observations from a re-analysis of the deposited data

How the results depend on the processing

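The Abcc12 call held in all 12 alternatives with every library and all 6 fits that left out a library (log2 fold changes -1.18 to -0.96). Abcc5 stayed higher in all 18 but did not pass with limma on log2(TPM + 1) at 0.27, log2(TPM + 0.1) at 0.33 or log2(FPKM + 1) at 0.27, nor with mean fragment length as a covariate at 0.64; over those fits and the others with every library its adjusted p ran from 8.13e-05 to 0.999. Without 1 library it ranged from 0.49 to 0.61, with 3 of 6 past the threshold. The members called were accordingly 1 in those 4 settings and 1 to 2 without 1 library. Among all genes, 2943 were called by DESeq2, 735, 947 and 707 on the respective log2 scales and 1 with the covariate (545 at an unadjusted p under 0.05), against 1856, and from 7 to 3029 without 1 library. The 11, 13 and 7 calls without DKO replicate 1, WT replicate 2 and WT replicate 3 were all lower. On log2(TPM + 1) 279 were higher and 456 lower, on log2(TPM + 0.1) 370 and 577, and on log2(FPKM + 1) 335 and 372, against 984 and 872 in edgeR. With the covariate, which does not overlap between groups, 5 uncalled members turned positive: Abcc1 at 0.0170, Abcc4 at 0.27, Abcc6 at 0.32, Abcc9 at 0.40 and Abcc10 at 0.0074; the cause was not tested. Abcc4 also turned positive after thinning, at 0.0739. Without 1 library Abcc4 ranged from -0.17 to 0.0496 and Abcc9 from -0.20 to 0.0786, both positive without WT replicate 2. The ratio of summed TPM (0.687 to 0.727), the difference in the Abcc12 share (-18.8 to -16.2 percentage points) and in the Abcc5 length (482 to 646 bases) kept their direction. The call counts of the related lists were chosen for this check after seeing the data. Without 1 library they ranged from 0 to 10 for glutathione genes, 0 to 2 for exporters, 0 to 3 for heme genes and 0 to 2 for cyclic GMP genes. With every library they ranged from 0 to 8, 0 to 2, 0 to 3 and 0 to 1. Sulfation and glucuronidation genes had 0 calls with every library and from 0 to 2 without 1 library. No paired analysis was possible because the labels give the groups no shared replicate numbers.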
